A study of Mus musculus with 7 samples.

Results

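The transcripts of 10 genes of transforming growth factor beta (TGF-beta) signalling were followed in single cells of the mouse ventricular-subventricular zone (V-SVZ), the stem cell niche along the lateral ventricles. The members, 10 of 32285 genes counted, were chosen by name: the ligands Tgfb1, Tgfb2 and Tgfb3, the latent ligand carrier Ltbp1, the receptors Tgfbr1, Tgfbr2 and Tgfbr3, and the intracellular proteins Smad2, Smad3 and Smad7. The choice also rested on a measured value, the higher Tgfb2 in neuroblast-like cells of Prdm16 cKO mice, so that difference is given as a description without a test. There were 3 control libraries (genotype Prdmflox/flox), 3 Prdm16 cKO libraries (hGFAP-Cre+/-; Prdm16flox/flox) and 1 Prdm16-Vcam1 DKO library (hGFAP-Cre+/-; Prdm16flox/flox; Vcam1flox/flox). All came from mice aged 31 to 33 days, and each pooled the V-SVZ of 2 to 3 animals of both sexes, so the library is the unit of comparison. Prdm16 encodes an epigenetic regulator and Vcam1 a cell adhesion molecule. The hGFAP-Cre transgene acts in radial glia from the embryo on and so reaches their neuronal and glial descendants, whereas endothelial cells, mural cells and microglia arise from other lineages. The control libraries carry the floxed alleles and, by their label, no Cre, so effects of the transgene and of the deletion cannot be told apart.

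TGF-beta ligands are secreted in a latent form, held in the matrix by carriers such as Ltbp1 and released by integrins and other activators. Active ligand binds the receptor kinase Tgfbr2, which recruits and activates Tgfbr1, while Tgfbr3 (betaglycan) presents ligand, above all Tgfb2, to them. Tgfbr1 phosphorylates Smad2 and Smad3, which enter the nucleus with Smad4, and Smad7 is an inhibitor that the pathway itself induces. In the brain the pathway is known for restraining neural precursor proliferation, for vessel stability and for the mature state of microglia.

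Of 65049 barcodes, 43346 cells had 500 to 7000 detected genes and at most 10% mitochondrial counts, and library totals were 45758003 to 141353017 UMIs (unique molecular identifiers, each counted as 1 captured transcript). Median depth per kept cell was 4959.5 to 8317.5 UMIs across libraries, and cKO library 2 was the smallest with 1868 cells. Clusters named from markers gave 11 cell types: NSC-like (neural stem cell, 5380 cells), astrocyte-like (2277), ependymal-like (2702), TAP-like (transit amplifying precursor, 2943), neuroblast-like (8124), neuron-like (2154), OPC-like (oligodendrocyte precursor, 1556), oligodendrocyte-like (5243), microglia-like (1070), endothelial-like (2760) and mural-like (1126). Clusters led by hemoglobin genes (3297 cells) and fibroblast genes (1752 cells, 1243 of them in control library 2) and 2962 unnamed cells were not compared. The hemoglobin-led cluster had a median of 1169 UMIs per cell, and Gfap and C4b were also among its leading genes. It held from 147 cells in cKO library 1 to 926 in cKO library 3. With clustering at resolution 0.3, a hemoglobin-led cluster held only 248 cells. A low-UMI cluster of 2980 cells, led by Gfap and C4b, was unnamed there. The 3297 cells therefore need not be mostly red blood cells. Any pair of libraries shared at most 70 cell barcodes, 1.48% of the smaller library. In NSC-like cells Prdm16 was at 60.7 to 72.1 CPM in control, 50.2 to 55.4 in cKO and 59.1 in the DKO library, but counts of 3′ ends need not fall in the deleted part and check nothing. Levels are given as CPM, the UMIs of a gene in a cell type of a library scaled to a common normalized total. In such sums fewer positive cells and less RNA per cell cannot be told apart.

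The sequences upstream of Tgfb2 and Tgfbr2 are shown because these 2 members were higher in every cKO library than in every control library in NSC-like cells. By GENCODE vM21 (GRCm38) Tgfb2 (ENSMUSG00000039239) lies at chr1:186622792-186705989 and Tgfbr2 (ENSMUSG00000032440) at chr9:116084293-116175360, both on the minus strand. The 250 bases before the start are from RefSeq (GRCm38.p6, minus strand, 5′ to 3′), at chr1:186705990-186706239 for Tgfb2 and chr9:116175364-116175613 for Tgfbr2. Capitals mark matches, on either strand, to 5 motifs. The Smad binding element was searched as CAGAC. The GC box bound by Sp factors was searched as GGGCGG. The core of the cyclic AMP response element was searched as TGACG. The E box bound by helix-loop-helix factors was searched as CACGTG, and the TATA box as TATAAA.
Tgfb2: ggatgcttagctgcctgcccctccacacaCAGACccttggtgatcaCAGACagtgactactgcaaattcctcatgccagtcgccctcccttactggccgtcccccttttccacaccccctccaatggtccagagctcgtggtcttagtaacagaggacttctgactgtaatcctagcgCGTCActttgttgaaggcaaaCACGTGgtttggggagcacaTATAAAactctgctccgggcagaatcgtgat
Tgfbr2: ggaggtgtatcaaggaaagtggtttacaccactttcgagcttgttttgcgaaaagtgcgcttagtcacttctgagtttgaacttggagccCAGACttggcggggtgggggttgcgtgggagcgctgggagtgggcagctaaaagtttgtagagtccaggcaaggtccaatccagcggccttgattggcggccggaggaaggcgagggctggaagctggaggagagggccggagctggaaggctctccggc
The Tgfb2 sequence held CAGAC at 221 and 204 bases before the start, TGACG on the other strand at 72, CACGTG at 51 and TATAAA at 31, and none of these overlapped. The Tgfbr2 sequence held CAGAC at 160 bases and none of the other letters searched. Of 32851 RefSeq promoters, 42.2% held CAGAC in this window, 32.7% GGGCGG, 17.8% TGACG, 6.02% CACGTG and 12.4% TATAAA. The matches describe the letters only, since no binding was measured. A promoter entry was found for 6 of the 10 members.

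The ligands had different sources in the niche. Tgfb1 (chr7:25687002-25705077) was highest in microglia-like cells, at 299, 384 and 279 CPM in control libraries 1, 2 and 3. Endothelial-like cells held 76.9 ± 17.9 CPM (SD, n = 3 control libraries) and mural-like cells 64.8 ± 16.1. The microglia-like level lay above the endothelial-like level in 7 of 7 libraries. The ranges of endothelial- and mural-like cells overlapped, although within a library endothelial-like cells were the higher in 7 of 7. Astrocyte-like cells, next in order, reached only 5.36 ± 1.88 CPM.

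Tgfb2 was highest in endothelial-like cells, at 160, 203 and 231 CPM in control libraries 1, 2 and 3. Mural-like (126 ± 17.0 CPM, SD, n = 3), ependymal-like (92.5 ± 17.6), astrocyte-like (74.1 ± 1.85) and NSC-like cells (52.6 ± 7.48) followed. Over all 7 libraries each of these types overlapped with the next in order, whereas every NSC-like value lay above every OPC-like value (20.4 ± 1.92 CPM in control). Within a library, endothelial-like cells lay above mural-like cells in 6 of 7 and mural-like above ependymal-like cells in 7 of 7. Ependymal-like cells lay above astrocyte-like cells, and these above NSC-like cells, in 5 of 7 each. Tgfb2 was lower in neuron-like (14.2 ± 1.22), neuroblast-like (7.47 ± 1.21), TAP-like (2.44 ± 0.543) and oligodendrocyte-like cells (1.65 ± 0.379). Along the neurogenic lineage the control level was therefore highest in NSC-like and lowest in TAP-like cells. Tgfb3 (chr12:86056745-86079041) was highest in mural-like cells at 43.1 ± 10.1 CPM, above ependymal-like cells (6.48 ± 4.0), the next in order, in 7 of 7 libraries. Ltbp1 (chr17:75005568-75392512) was also highest in mural-like cells, at 93.3 ± 20.1 CPM, followed by OPC-like (16.3 ± 1.99) and astrocyte-like cells (9.69 ± 0.212). Mural cells, the contractile and supporting cells of vessels, thus led for both Tgfb3 and the carrier.

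**Figure D1:**
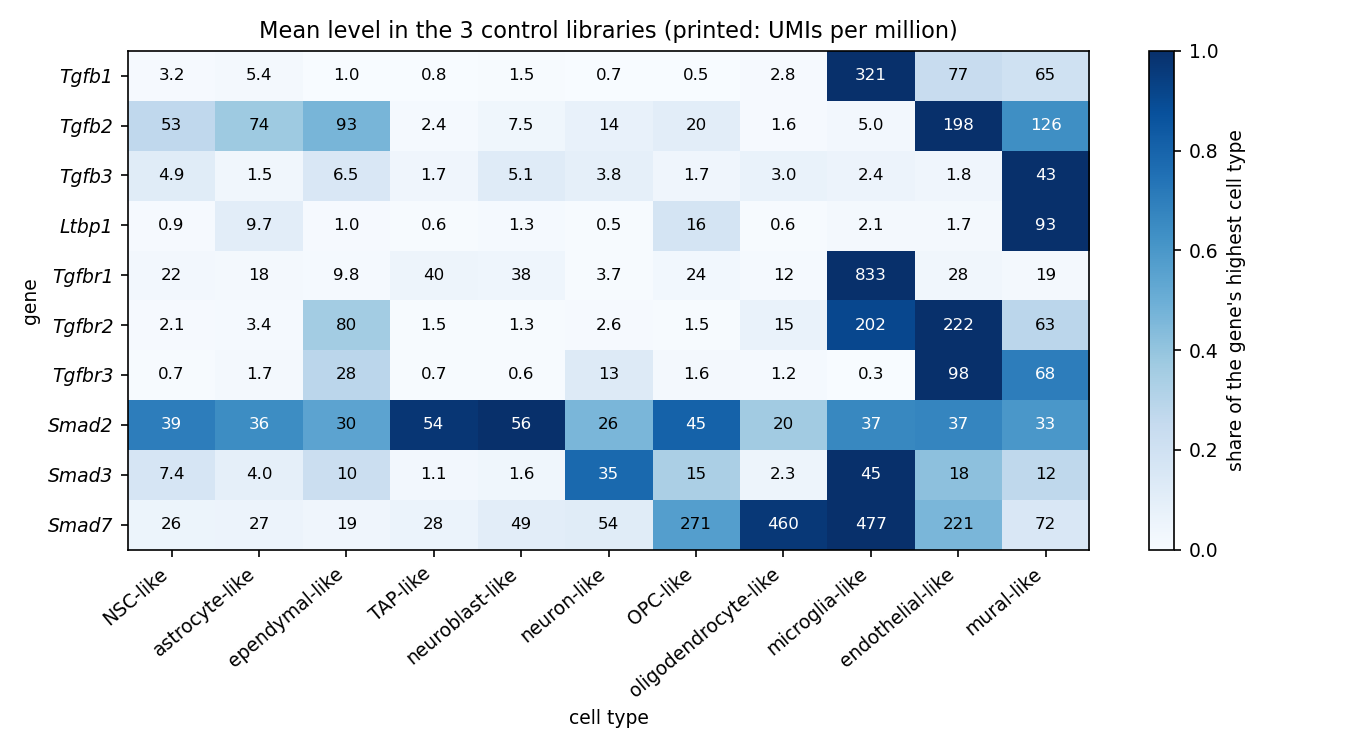
Mean level of the 10 members in each cell type over the 3 control libraries, printed in CPM, with the shade giving the share of the gene's own highest cell type. Tgfb1 and Tgfbr1 peak in microglia-like cells (321 and 833), Tgfb3 and Ltbp1 in mural-like cells (43.1 and 93.3), and Tgfb2, Tgfbr2 and Tgfbr3 in endothelial-like cells. Values are to be compared along a row, not between genes.

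Among the receptors, Tgfbr1 (chr4:47353222-47414931), the signalling kinase, was at 762, 886 and 852 CPM in the microglia-like cells of control libraries 1, 2 and 3. TAP-like cells came next at 40.0 ± 3.42 CPM (SD, n = 3) and neuroblast-like cells at 38.1 ± 1.97, which overlapped. The lowest level was in neuron-like cells (3.72 ± 0.806 CPM). Tgfbr2, which binds the ligand, was highest in endothelial-like (222 ± 32.2 CPM) and microglia-like cells (202 ± 33.5), which overlapped with each other and lay above ependymal-like cells (79.6 ± 11.9). Mural-like cells held 63.3 ± 7.32 CPM and oligodendrocyte-like cells 15.2 ± 0.874. NSC-, TAP- and neuroblast-like cells stood near the bottom of the order, at 2.10 ± 0.775, 1.52 ± 0.598 and 1.32 ± 0.260 CPM, and overlapped. Tgfbr3 (chr5:107106570-107289629) was highest in endothelial-like cells (97.6 ± 17.2 CPM), followed by mural-like (68.3 ± 9.84), ependymal-like (27.7 ± 6.59) and neuron-like cells (12.8 ± 0.776), each above the next in 7 of 7 libraries. The ranges over all 7 libraries overlapped between endothelial- and mural-like cells and between mural- and ependymal-like cells. In the other 7 types the control mean of Tgfbr3 was between 0.269 and 1.74 CPM.

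Smad2 (chr18:76241580-76310963) was the most evenly spread member, from 20.2 ± 4.44 CPM in oligodendrocyte-like to 54.3 ± 4.59 in TAP-like and 55.7 ± 2.07 in neuroblast-like cells (SD, n = 3), and the last 2 overlapped. Smad3 (chr9:63646767-63757994) was highest in microglia-like (44.5 ± 5.01 CPM) and neuron-like cells (34.7 ± 4.60). It was lowest in oligodendrocyte-like (2.26 ± 0.420), neuroblast-like (1.64 ± 0.131) and TAP-like cells (1.13 ± 0.479). Smad7 (chr18:75367529-75395935), the inhibitor, was at 477 ± 43.6 CPM in microglia-like and 460 ± 35.9 in oligodendrocyte-like cells, which overlapped. OPC-like (271 ± 54.7 CPM) and endothelial-like cells (221 ± 21.0) followed and also overlapped, and the other 7 types were at 72.1 CPM or lower. Oligodendrocyte-like cells were thus near the top of the order for Smad7 and near the bottom for Smad3 and Tgfb2.

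Among 7898 genes tested in every type, those whose mean log2(CPM + 1) over the control libraries followed Tgfb2 most closely across the 11 types were Dennd4c (Pearson r = 0.96), Timp3 (0.93), Sparcl1 (0.92), Bad (0.91) and Plec (0.91). For Tgfbr2 they were Adamts1 (0.92), Mtus1 (0.91), Dusp1 (0.90), Klf2 (0.90) and Hspb1 (0.90). The 11 points come from the same 3 libraries, and these values describe likeness only.

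The cKO libraries were compared with the control libraries within each cell type. Of 110 pairs of a member and a cell type, 89 passed the filter on low counts, and 88 remained without Tgfb2 in neuroblast-like cells. With edgeR (quasi-likelihood) and Benjamini-Hochberg adjusted p-values, 0 of the 88 passed 0.05, against 0.15% of all tests in the 11 types. With DESeq2 1 passed, Tgfb2 in NSC-like cells, where DESeq2 called 487 higher and 81 lower of 14381 genes. The 88 include 7 pairs in neuroblast-like cells, which share the contrast that chose Tgfb2, so that nothing is read from them. An unadjusted p under 0.05 was found for 8 pairs (9.09%, against 6.07% of all tests). Every cKO library lay above every control library in 8 pairs (9.09%, against 5.69% of all tests), and below in 3 (3.41%, against 5.76%). The median log2 fold change of the members tested in a type was between -0.05 in ependymal-like and 0.15 in oligodendrocyte-like cells outside the neuroblast-like cells. Of the 8 pairs with an unadjusted p under 0.05, 3 were of Tgfb2 and 2 of Tgfbr2, and the others were Ltbp1 in oligodendrocyte-like cells, Smad7 in neuron-like cells and 1 of the neuroblast-like pairs, from which nothing is read.

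**Figure D2:**
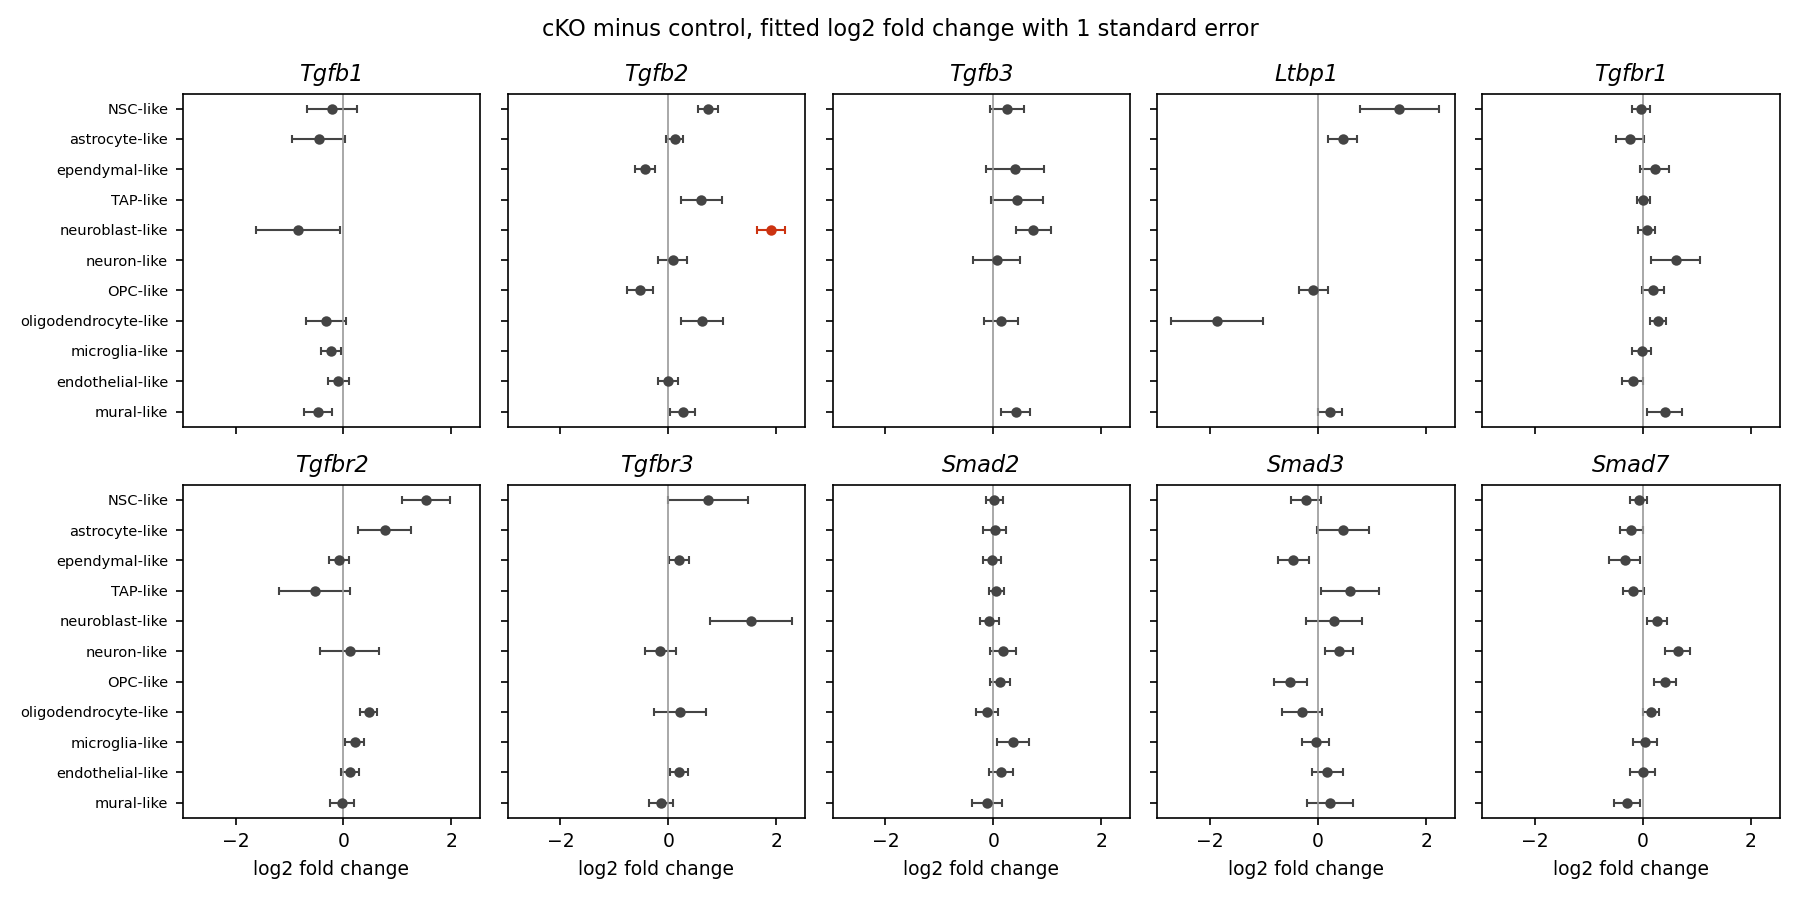
Fitted log2 fold change, cKO minus control, of each member in each cell type where it passed the filter on low counts, with bars of 1 standard error. Tgfb2 in neuroblast-like cells (red, 1.90) was used to choose the gene, and Tgfb2 and Tgfbr2 in NSC-like cells are at 0.73 and 1.53, while Smad2 lies close to 0 in most types.

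In neuroblast-like cells, the migrating immature neurons, Tgfb2 was at 6.07, 8.17 and 8.15 CPM in control libraries 1, 2 and 3 (44, 46 and 76 UMIs). In cKO libraries 1, 2 and 3 it reached 18.7, 30.2 and 35.1 CPM (90, 75 and 196 UMIs), against 9.84 CPM in the DKO library (120 UMIs). All cKO values lay above all control values, and the DKO value lay between the groups, close to the controls. The ratio of the group means was 3.75, with a log2 fold change of 1.90 (SE 0.26). The difference of log2(CPM + 1) was 1.62 among the libraries of Cell Ranger version 6.0.1 and 1.98 between the 2 of version 6.1.1. In this type 2 of 13788 genes (0.0145%) were called, 6.48% of genes lay above and 6.65% below the controls in every cKO library, and nothing is read from these shares because the contrast chose the gene.

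**Figure D3:**
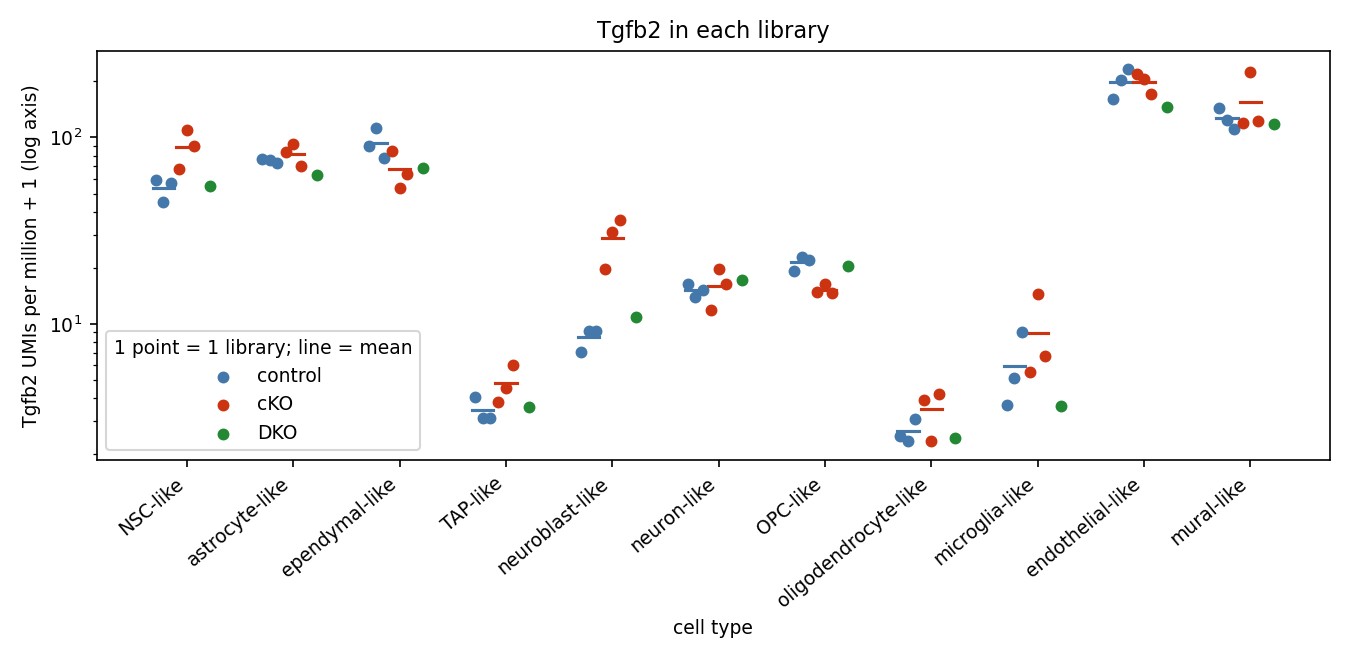
Tgfb2 in each library and cell type, in CPM plus 1 on a log axis, with 1 point per library and lines at the means of the 3 control and 3 cKO libraries. Before adding 1, neuroblast-like cells are at 6.07 to 8.17 in control and 18.7 to 35.1 in cKO libraries, and in NSC-like cells the cKO libraries also lie above the controls, while in OPC-like cells they lie below.

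Few neuroblast-like cells held a Tgfb2 UMI. With each cell thinned to 2000 UMIs, the share with at least 1 was 1.48%, 1.84% and 0.978% in control libraries 1, 2 and 3, 3.32%, 4.35% and 4.58% in the cKO libraries, and 1.85% in the DKO library (exact Clopper-Pearson 95% interval 1.24 to 2.65%). The thinned cKO shares all lay above the control and DKO shares, but they re-use the contrast that chose Tgfb2, so nothing is read from this. Unthinned, the shares were 2.39 to 4.11% in control, 5.09 to 9.91% in cKO and 4.31% in the DKO library. Oligodendrocyte-like cells, the type with the lowest control level, gave thinned shares of 0 to 0.599%, with median depths of 12320 to 31226 UMIs against 3882 to 8825 in neuroblast-like cells. Thinning left out 31 to 292 neuroblast-like cells per library. Intervals cover counting error only.

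Tgfb2 was uneven among the neuroblast-like cells. At resolution 0.3 they divided mainly into cells led by Stmn2 and Islr2 (6473 cells), cells of a low-UMI cluster whose leading genes include Calb2, Prokr2, Sst and Npy (1395 cells), and a small Sln-led cluster (180 cells). The Calb2/Prokr2-led cells, which would be left unnamed at this resolution, were 17.2% of the neuroblast-like cells and held 52.5% of their Tgfb2 UMIs. Calb2 encodes calretinin, a marker of a class of olfactory bulb interneurons. These cells made up 9.43%, 7.42% and 13.1% of the neuroblast-like cells in control libraries 1, 2 and 3, 10.1%, 25.2% and 29.7% in the cKO libraries, and 25.5% in the DKO library (exact 95% interval 23.5 to 27.6%). Their share was thus high in cKO libraries 2 and 3 and the DKO library, but within the control range in cKO library 1.

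Tgfb2 was also described inside these clusters, as CPM of the raw total of each cluster. The values re-use the contrast that chose Tgfb2, so nothing is read from whether the groups overlap. In the Stmn2/Islr2-led cells it was at 4.18, 3.83 and 3.26 in control libraries 1, 2 and 3, 6.71, 10.3 and 16.4 in the cKO libraries, and 3.86 in the DKO library, and the cKO and control libraries did not overlap. In the Calb2/Prokr2-led cells it was at 52.4, 111 and 59.7 in control (13, 21 and 28 UMIs), 174, 123 and 98.3 in cKO (53, 53 and 105 UMIs) and 40.6 in the DKO library, and the groups overlapped. With neuroblast-like cells as named at resolution 0.3, without the Calb2/Prokr2-led cells, the log2 fold change was 1.47. What part the share of these cells had in the summed level was not tested.

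**Figure D4:**
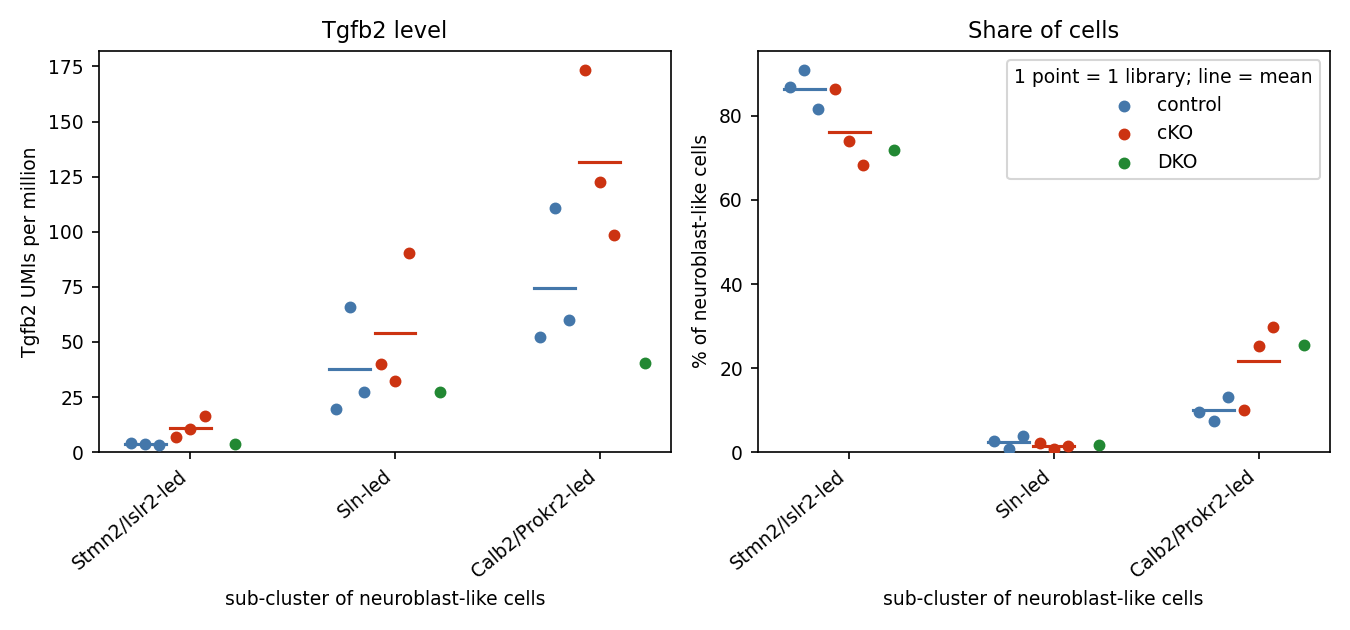
Left, Tgfb2 in CPM, and right, the percent of neuroblast-like cells, in 3 sub-clusters of neuroblast-like cells, with 1 point per library and lines at the means of the 3 control and 3 cKO libraries. The Calb2/Prokr2-led cells reach 174 CPM and are 25.2% and 29.7% of the cells in 2 cKO libraries, against 7.42 to 13.1% in control libraries.

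Most Tgfb2 UMIs were in neuroblast-like cells without a UMI of a cell cycle gene (Mki67, Top2a, Cdk1, Ccnb1 or Birc5): these 6868 cells held 583 of them and the 1256 cells with one held 64. In the cells without, Tgfb2 was at 6.53 to 9.43 CPM of the raw total in control, 19.7 to 35.0 in cKO and 10.5 in the DKO library. The groups did not overlap, but this split too re-uses the contrast that chose Tgfb2, and nothing is read from it. In the cells with one, the cKO libraries ranged from 0 to 20.3 and the controls from 5.79 to 7.40. Markers of endothelial cells, the type with most Tgfb2, summed to 16.3 to 29.4 CPM in control and 20.5 to 29.0 in cKO neuroblast-like cells, with 0 of 6 markers above the controls in every cKO library. Ependymal markers summed to 30.6 to 88.0 and 55.8 to 146 CPM, with 2 of 6 above and none at 0. TAP markers summed to 58.5 to 66.5 CPM in control and 27.4 to 49.2 in cKO, with 3 of 7 below and none at 0. The share of cells with a cell cycle UMI, without thinning, was 15.2 to 27.2% in control, 7.54 to 9.77% in cKO and 19.1% in the DKO library. The part of these in the result was not tested.

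The other members in neuroblast-like cells share the contrast, and their values are given as a description. Tgfb3 was at 3.73, 5.86 and 5.58 CPM in control, 6.02, 8.46 and 10.7 in cKO and 5.91 in the DKO library, a log2 fold change of 0.74 (SE 0.33). Its cKO values all lay above the controls, by little in cKO library 1. Tgfbr1, Smad2 and Smad7 had log2 fold changes of 0.07 (SE 0.15), -0.07 (SE 0.18) and 0.26 (SE 0.18), with overlapping groups. The groups also overlapped for Tgfbr3 (1.52, SE 0.76), Tgfb1 (-0.84, SE 0.77) and Smad3 (0.29, SE 0.51), each at under 3 CPM in every library. Ltbp1 was at 0.622 to 1.61 CPM and Tgfbr2 at 0.403 to 1.79 CPM in the 7 libraries, and both did not pass the filter.

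In NSC-like cells the ligand Tgfb2 and the receptor Tgfbr2 were higher in every cKO library than in every control library, without passing the threshold. Tgfb2 was at 57.9, 44.1 and 56.0 CPM in control libraries 1, 2 and 3, 66.8, 108 and 89.4 in the cKO libraries and 53.8 in the DKO library. The DKO value lay within the control range. The log2 fold change was 0.73 (SE 0.19, adjusted p = 0.107 from edgeR, exact two-sided permutation p = 0.1, the smallest that 3 libraries against 3 allow). Tgfbr2 was at 1.24, 2.32 and 2.74 CPM in control (9, 11 and 27 UMIs), 3.47, 6.92 and 8.09 in cKO (20, 19 and 59 UMIs) and 1.95 in the DKO library (17 UMIs). Here too the DKO library lay within the control range, and the counts were low throughout. The log2 fold change was 1.53 (SE 0.44, adjusted p = 0.139 from edgeR). In NSC-like cells 0.153% of genes were called. Of all genes 9.93% lay above the controls in every cKO library, as 2 of the 10 members did, and 8.14% below, as none of the members did. Both genes were highest in cKO libraries 2 and 3, which kept the smallest shares of their barcodes (49.8% and 47.2%). In cKO library 1, where 74.7% were kept, they were closer to the controls. The part of library quality in the results was not tested.

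These values depended on the test, on the libraries used and on the mitochondrial limit. Tgfb2 was called by DESeq2 (adjusted p = 0.0312) and Tgfbr2 was not (adjusted p = 0.0789), and without the filter on low counts edgeR called both (adjusted p = 0.00765 and 0.0295). Without cKO library 1, the lowest of its group, the log2 fold changes were 0.89 and 1.83, with adjusted p of 0.00227 and 0.006 from edgeR. Calls over all genes of NSC-like cells rose as well in these settings, from 22 of 14381 to 487 higher and 81 lower of 14381 with DESeq2, 442 and 120 of 21686 without the filter, and 1024 and 636 of 14494 without cKO library 1. Without any 1 of the control libraries edgeR called 0 genes there, with 1421 to 1854 at an unadjusted p under 0.05. Over all alternatives the adjusted p ranged from 0.00227 to 0.44 for Tgfb2 and from 0.006 to 0.571 for Tgfbr2. With at most 5% mitochondrial counts the log2 fold changes were 0.61 and 1.15, with adjusted p of 0.218 and 0.403 from edgeR. This limit left 384 of 878, 85 of 211 and 373 of 662 NSC-like cells in cKO libraries 1, 2 and 3. In the DKO library it left 741 of 839. The difference of log2(CPM + 1) among libraries of Cell Ranger 6.0.1 was 0.74 for Tgfb2 and 1.13 for Tgfbr2, and between the 2 of 6.1.1 it was 0.66 and 1.28, so that both versions gave the same sign.

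After thinning to 2000 UMIs, 8.29 to 10.0% of NSC-like cells held a Tgfb2 UMI in control, 11.4 to 14.5% in cKO and 8.85% in the DKO library (exact 95% interval 7.01 to 10.99%), and the cKO and control libraries did not overlap. Unthinned, the shares were 26.1 to 31.9%, 29.7 to 53.1% and 32.4%, at median depths of 5224 to 11456 UMIs over the 7 libraries. For Tgfbr2 the thinned shares were 0 to 0.641% in control and 0.462 to 1.52% in cKO, which overlapped, against 0 to 0.226% in neuroblast-like cells. Endothelial markers summed to 16.6 to 29.0 CPM in control and 25.0 to 49.9 in cKO NSC-like cells, with 2 of 6 above the controls in every cKO library. Astrocyte markers summed to 3537.5 to 4615 and 4310.2 to 5112 CPM, with 4 of 8 above, and ependymal markers to 166 to 262 and 216 to 305 CPM, with 2 of 6 above. TAP markers summed to 287 to 359 and 177 to 278 CPM, with 4 of 7 below. No marker of these 4 lists was at 0 in all libraries. In control libraries Tgfb2 was higher in endothelial-, ependymal- and astrocyte-like than in NSC-like cells, and Tgfbr2 was at 79.6 CPM in ependymal-like cells. The part of these markers in the results was not tested. The other members had overlapping groups in NSC-like cells. Ltbp1, at 0.275 to 1.69 CPM in control and 0.868 to 4.39 in cKO, had a log2 fold change of 1.4999 (SE 0.73, adjusted p = 0.403 from edgeR), about as large as that of Tgfbr2, and Tgfbr3, at 0.550 to 0.844 and 0 to 1.64 CPM, had 0.73 (SE 0.74, adjusted p = 0.73 from edgeR). The log2 fold changes of Tgfb1 (-0.21, SE 0.46), Tgfb3 (0.26, SE 0.31), Tgfbr1 (-0.03, SE 0.16), Smad2 (0.02, SE 0.15), Smad3 (-0.23, SE 0.27) and Smad7 (-0.08, SE 0.15) in NSC-like cells were each smaller than their standard error.

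The other types gave Tgfb2 log2 fold changes of both signs, and none was called. In TAP-like and oligodendrocyte-like cells, where its level was low, they were 0.61 (SE 0.38) and 0.62 (SE 0.39), near that of NSC-like cells, with overlapping groups (2.44 ± 0.543 and 3.79 ± 1.14 CPM in control and cKO TAP-like cells, 1.65 ± 0.379 and 2.48 ± 0.989 in oligodendrocyte-like cells, SD, n = 3 each). In OPC-like cells it was at 18.2, 21.8 and 21.1 CPM in control, 13.8, 15.4 and 13.7 in cKO and 19.4 in the DKO library. All cKO values lay below all control values, as for 5.94% of genes in this type (log2 fold change -0.53, SE 0.24, adjusted p = 0.946 from edgeR). In ependymal-like cells it was at 88.8, 112 and 77.0 CPM in control and 84.0, 52.8 and 62.5 in cKO libraries, which overlapped (-0.43, SE 0.19, adjusted p = 0.556 from edgeR). In astrocyte-like cells (74.1 ± 1.85 CPM in control, 80.9 ± 11.1 in cKO, SD, n = 3 each) and endothelial-like cells (198 ± 35.8 and 198.5 ± 24.7 CPM) the groups overlapped as well, and the DKO library was the lowest of all in both (61.6 and 145 CPM). No sign was thus shared by all types.

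Few other pairs had groups that did not overlap, and none was called. Smad7 in neuron-like cells was at 61.6, 47.3 and 53.4 CPM in control and 85.6, 103 and 65.7 in cKO (log2 fold change 0.64, SE 0.23, adjusted p = 0.9993 from edgeR), where 0.00775% of genes were called and 3.52% lay above the controls. Tgfbr1 was at 24.2 ± 1.76 CPM in control and 27.8 ± 2.58 in cKO OPC-like cells (SD, n = 3 each, log2 fold change 0.18, SE 0.20, adjusted p = 0.971 from edgeR), with every cKO library above the controls, as for 5.19% of genes there. In oligodendrocyte-like cells it was at 12.4 ± 1.09 and 15.1 ± 0.999 CPM (0.27, SE 0.15, adjusted p = 0.9997 from edgeR), also above, as were 3.06% of genes. Ltbp1 was higher in astrocyte-like cells (9.69 ± 0.212 against 13.02 ± 2.22 CPM), as were 7.67% of genes there. In oligodendrocyte-like cells Ltbp1 was lower, with 4, 10 and 13 UMIs in control and 1, 1 and 3 in cKO libraries, as were 3.64% of genes. Smad3 was lower in ependymal-like cells (10.1 ± 2.62 against 6.85 ± 0.369 CPM), as were 7.07% of genes. The vascular types and microglia-like cells lie outside the hGFAP-Cre lineage, and every member tested there had overlapping groups. In endothelial-like cells the log2 fold changes of 8 members ranged from -0.19 to 0.21, and 3.66% and 3.72% of all genes lay above and below the controls in every cKO library. In mural-like cells those of 10 members ranged from -0.47 to 0.41 (3.97% and 4.77% of all genes above and below). In microglia-like cells those of 6 members ranged from -0.23 to 0.37 (4.51% and 4.91% of all genes above and below). In TAP-like cells, inside the lineage, all 7 tested members overlapped as well (5.66% and 6.03% of all genes above and below).

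In oligodendrocyte-like cells the DKO library stood apart for Tgfbr2. It was at 15.9, 15.5 and 14.2 CPM in control libraries 1, 2 and 3, 18.7, 18.5 and 25.4 in the cKO libraries, and 1.45 in the DKO library. This was 23 UMIs in 742 cells, against 96 to 356 UMIs in each of the other libraries. The DKO value lay far below all others, while the cKO values lay slightly above the controls, as for 3.06% of genes (log2 fold change 0.47, SE 0.16, adjusted p = 0.9997 from edgeR). The difference of log2(CPM + 1) was 0.23 within Cell Ranger version 6.0.1 and 0.80 within version 6.1.1. Of 7234 genes with at least 10 CPM in each of the other 6 libraries, 4 (0.0553%) were at least 5-fold below the lowest of them in the DKO library: Tgfbr2, Gdpd3, Serpina3n and Cyp2d22, the last 3 named after their values were seen.

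The low level was next read in the stages of oligodendrocyte-like cells. In the largest cluster at resolution 0.3, led by Ptgds, Mal and Opalin, Tgfbr2 was at 14.1 to 18.3 CPM of the raw total in control, 19.5 to 28.1 in cKO and 1.04 in the DKO library. In the cluster led by Klk6 and Hapln2 it was at 10.9 to 12.1, 13.7 to 17.6 and 0.984. In the cluster led by Bmp4 and Gpr17, genes of newly formed oligodendrocytes, it was at 14.2 to 29.9, 14.6 to 25.2 and 8.01, the last from 7 UMIs against 2 to 49 in the others. The DKO library was lowest in each of these 3 clusters, with a wide gap in the first 2 clusters and a smaller one in the third. After thinning, 3.12 to 3.60% of oligodendrocyte-like cells held a Tgfbr2 UMI in control, 3.58 to 5.99% in cKO and 0.564% in the DKO library (exact 95% interval 0.154 to 1.44%), and unthinned 17.3 to 30.5%, 22.5 to 36.0% and 2.70%. Neuroblast-like cells gave thinned shares of 0 to 0.226%.

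**Figure D5:**
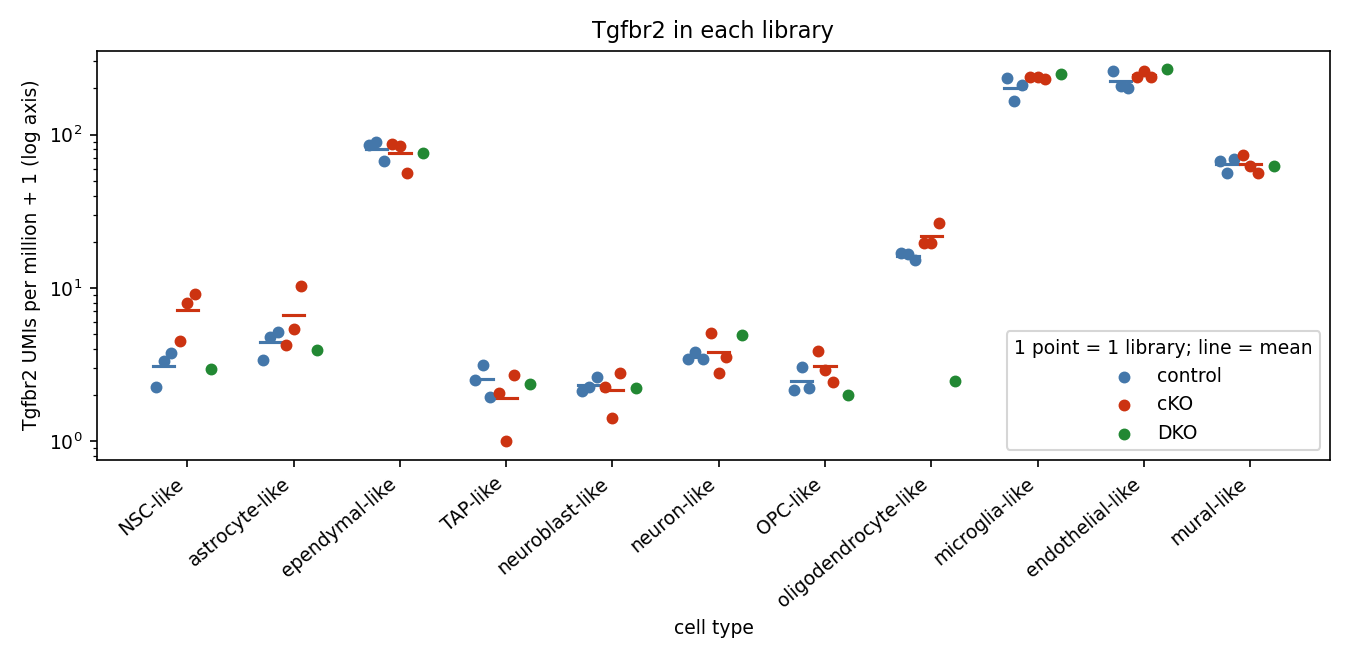
Tgfbr2 in each library and cell type, in CPM plus 1 on a log axis, with 1 point per library and lines at the means of the 3 control and 3 cKO libraries. Before adding 1, oligodendrocyte-like cells of the DKO library are at 1.45 and those of the other 6 at 14.2 to 25.4, while in endothelial- and microglia-like cells the DKO library is the highest (265 and 246).

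In OPC-like cells, the precursors of this lineage, Tgfbr2 was also lowest in the DKO library, at 0.988 CPM (3 UMIs) against 1.14 to 2.85 CPM (2 to 6 UMIs) in the others. Its level was 265 CPM in endothelial-like cells and 246 in microglia-like ones, the highest of 7 libraries in both, and at 74.7 in ependymal-like and 61.6 in mural-like cells, within the range of the others. In the oligodendrocyte-like cells of the DKO library Smad7 was at 435 CPM, Tgfbr1 at 15.5 and Smad2 at 28.5, the last above all other libraries. Smad2 was also highest in the DKO library in OPC-, TAP-, astrocyte-, ependymal- and microglia-like cells, so this was not particular to oligodendrocyte-like cells. Gdpd3 met the same 5-fold criterion in endothelial-, microglia- and mural-like cells, and Serpina3n in astrocyte-like cells. Under the floor of 10 CPM, Gdpd3 was also low in NSC-like (0.229 against 7.01 to 10.7 CPM), neuroblast-like (1.48 against 9.34 to 28.6) and ependymal-like cells (1.22 against 7.05 to 15.4). Serpina3n was also lowest in the DKO library in NSC-like (11.8 against 26.0 to 132 CPM) and ependymal-like cells (3.27 against 12.9 to 26.4). Tgfbr3 was lowest of all libraries in the DKO library in endothelial-like (72.2 CPM), mural-like (35.8) and neuron-like cells (8.73). There is 1 DKO library, so its genotype, its animals and its preparation cannot be told apart.

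The rest of the pathway was read from 65 further genes in 5 roles, 61 of which passed the filter in at least 1 type. Of their 487 tests edgeR called 0 and DESeq2 called 6. The 6 were in NSC-, astrocyte- and ependymal-like cells. Of all genes there, DESeq2 called 487 higher and 81 lower of 14381, 165 and 37 of 12118, and 82 and 22 of 13892. Of the 487 pathway tests, 48 had an unadjusted p under 0.05 (6.07% of the tests of all genes had one), 18 of them higher and 30 lower in cKO. These counts include tests in neuroblast-like cells, which share the contrast that chose Tgfb2, and nothing is read from those. Every cKO library lay above the controls in 25 tests and below in 45, against 5.69% and 5.76% of the tests of all genes. By role, the tests with an unadjusted p under 0.05 were 2 higher and 6 lower of 47 for latency and matrix genes, 3 and 4 of 79 for activators, 2 and 3 of 58 for co-receptors and receptor regulators, 5 and 3 of 163 for Smad partners and regulators, and 6 and 14 of 140 for target genes. Differences between the roles were not tested.

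In NSC-like cells, beside Tgfb2 and Tgfbr2, a pair of activators of latent TGF-beta lay above the controls in every cKO library without passing edgeR's threshold. Itgb8, the integrin subunit that releases active ligand, was at 132 ± 18.2 CPM in control and 221 ± 50.0 in cKO (SD, n = 3 each), with 146 in the DKO library (log2 fold change 0.74, SE 0.20, adjusted p = 0.11 from edgeR). Thbs1, a matrix protein that activates latent ligand, was at 1.51 ± 0.215 and 8.67 ± 5.02 CPM, with 6.30 in the DKO library (2.43, SE 0.48, adjusted p = 0.0576 from edgeR). The target gene Cdkn1a, a cell cycle inhibitor, was at 8.40 ± 2.03 and 19.8 ± 9.27 CPM, with the DKO library between the group means (1.27, SE 0.32, adjusted p = 0.11 from edgeR). DESeq2 called all 3, and without cKO library 1 edgeR did (adjusted p = 0.00293, 4.83e-05 and 0.0084), 2 settings in which calls over all genes of this type rose as given above. A further activator went the other way: the integrin subunit Itgb5, named after its values were seen, was at 78.1 ± 6.87 and 56.9 ± 8.62 CPM (-0.45, SE 0.16, adjusted p = 0.22 from edgeR, and 0.0291 without cKO library 1). The remaining 5 activators tested in NSC-like cells had overlapping groups. Ski, a repressor of Smads, was at 66.5 ± 3.74 and 87.0 ± 14.5 CPM. Pmepa1, a feedback inhibitor, was at 51.6 ± 4.94 and 39.1 ± 6.46 CPM, and the carrier Ltbp4 at 10.7 ± 3.15 and 5.48 ± 2.23. Target genes also went the other way: the collagen chain Col1a2, named after its values were seen and also a fibroblast marker, was at 24.1 ± 2.45 and 13.96 ± 3.99 CPM (-0.77, SE 0.21, adjusted p = 0.127 from edgeR, and 0.00299 without cKO library 1), and of the target genes tested in NSC-like cells 2 were higher and 3 lower at an unadjusted p under 0.05. Each gene named here had groups that did not overlap, as had 9.93% of all genes of NSC-like cells above and 8.14% below, and nothing is read from it. Smad4, the common partner of Smad2 and Smad3, was at 87.1 ± 13.7 and 73.8 ± 1.65 CPM, with overlapping groups.

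In other types edgeR called no pathway gene either, and the genes given here are examples. Fbn1, a fibrillin that binds latent complexes, was at 9.77 ± 0.747 CPM in control and 1.80 ± 1.57 in cKO ependymal-like cells, with 5.31 in the DKO library (log2 fold change -2.17, SE 0.48, adjusted p = 0.114 from edgeR). In the same cells Thbs1 was at 13.3 ± 2.42 and 39.2 ± 22.1 CPM (1.52, SE 0.46, adjusted p = 0.375 from edgeR), and DESeq2 called both. Of all 13892 genes tested in ependymal-like cells DESeq2 called 82 higher and 22 lower. The carrier Ltbp3 was at 33.7 ± 5.75 and 20.5 ± 3.57 CPM in astrocyte-like cells (-0.76, SE 0.21, adjusted p = 0.107 from edgeR). Col1a2, a collagen chain on the target list and named after its values were seen, was at 17.4 ± 0.946 and 4.65 ± 4.45 CPM in astrocyte-like cells (-1.83, SE 0.43, adjusted p = 0.0524 from edgeR). DESeq2 called it (adjusted p = 0.0217), and without cKO library 1 edgeR did (-2.95, adjusted p = 5.65e-05). edgeR also did with Cell Ranger version as a block (adjusted p = 0.0282) and with the replicate block (0.00454). The replicate block also called Ltbp3 in astrocyte-like cells (0.032), and Fbn1 and Thbs1 in ependymal-like cells (0.0411 and 0.0149). Calls over all genes of astrocyte-like cells rose as well, from 132 higher and 28 lower to 165 and 37 with DESeq2, 173 and 57 with version and 266 and 177 with the replicate block. Col1a2 is also 1 of the 5 fibroblast markers, as are Col1a1, Col3a1 and Dcn of the pathway lists. Fibroblast markers moved with these genes: their sum over 5 markers was 34.6 to 43.0 CPM in control and 16.2 to 29.9 in cKO ependymal-like cells, 28.2 to 37.8 against 5.19 to 19.1 CPM in astrocyte-like cells, and 26.7 to 37.1 against 13.5 to 21.9 CPM in NSC-like cells. In each type 2 of 5 markers lay below the controls in every cKO library, and Lum was at 0 in all 7 libraries in ependymal- and astrocyte-like cells. Endothelial markers summed to 5.54 to 22.7 CPM in control and 28.4 to 50.9 in cKO astrocyte-like cells, with 3 of 6 above, and mural markers to 367 to 630 and 707 to 942 CPM in ependymal-like cells, with 1 of 7 above. In ependymal-like cells TAP markers summed to 50.3 to 60.5 and 18.4 to 41.9 CPM (5 of 7 below), oligodendrocyte markers to 360.3 to 519 and 165 to 326 (3 of 6 below), neuroblast markers to 839.9 to 968 and 652 to 790.03 (1 of 8 below) and astrocyte markers to 1059.8 to 1239.9 and 1348 to 1428 (2 of 8 above). Choroid plexus markers ranged from 566 to 2354 and from 169.6 to 667 CPM there, which overlapped (2 of 5 below). The part of these markers in the results was not tested. Of all genes in astrocyte-like cells 1.32% were called and 7.54% lay below the controls, and in ependymal-like cells 0.158% were called and 7.63% lay above. Bambi, a decoy receptor, was at 17.8 ± 5.52 CPM in control and 37.7 ± 16.1 in cKO neuroblast-like cells, with overlapping groups. Mmp14, a membrane protease that activates latent ligand and was named after its values were seen, was at 28.6 ± 3.12 and 14.6 ± 3.07 CPM in neuroblast-like cells (-0.95, SE 0.20), with every cKO library below the controls and 22.1 CPM in the DKO library. Both are given without a test because they share the contrast that chose Tgfb2. Ccn2, a target gene, was at 134 ± 59.8 and 65.8 ± 9.48 CPM in mural-like cells, also overlapping (-0.97, SE 0.32, adjusted p = 0.9994 from edgeR). It was called without control library 3 (-1.30, adjusted p = 0.0224 from edgeR) and without the filter on low counts (adjusted p = 0.0371).

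The same genes show where the pathway is placed in the niche. Endothelial-like cells led for the co-receptor Eng (730 ± 91.7 CPM in control, SD, n = 3), the type I receptor Acvrl1 (352 ± 48.6) and Ltbp4 (483 ± 69.1), without overlap with the next type. Microglia-like cells led without overlap for Nrros (129 ± 19.3 CPM), which holds latent Tgfb1 on microglia, for the Smad repressor Skil (309.5 ± 42.8) and for Pmepa1 (787 ± 91.0). Itgb8 was highest in astrocyte-like (198 ± 55.8 CPM) and OPC-like cells (168 ± 21.2), and its partner chain Itgav in microglia-like (106 ± 14.2) and mural-like cells (98.8 ± 11.7), each pair with overlap. Smad4 was highest in neuroblast-like cells (140.1 ± 19.4 CPM), overlapping with TAP-like cells (122 ± 14.0).

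Microglia-like cells carried the highest levels of Tgfb1, Tgfbr1 and Nrros, and 12 genes known to depend on TGF-beta in microglia were read in them. edgeR called 0 of the 12, 0 had an unadjusted p under 0.05, and in the whole type edgeR called 0.0% and DESeq2 1 of 9743 genes. Their log2 fold changes were between -0.23 for Olfml3 and 0.29 for Pros1, with a median of -0.06. P2ry12, a purine receptor of homeostatic microglia, was at 2612 ± 282 CPM in control and 2482 ± 168 in cKO libraries (SD, n = 3 each), with a 95% interval of the log2 fold change from -0.43 to 0.28. Tmem119 was at 1168 ± 29.2 and 1156 ± 116 CPM (interval -0.36 to 0.33), and Sall1, a transcription factor of microglial identity, at 268 ± 26.2 and 256 ± 21.8 (interval -0.41 to 0.28). Every one of these 3 genes overlapped between the groups.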

How the data were processed

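Single-cell RNA was measured in 7 libraries of 10x Genomics 3′ chemistry. The authors deposited raw UMI counts per gene and called barcode, made with Cell Ranger on GRCm38 and not normalized. The file headers name version 6.0.1 for control and cKO libraries 1 and 2 and 6.1.1 for the others, and the submitters' processing notes name 6.1.1. Cells with 500 to 7000 genes and at most 10% mitochondrial counts were integrated and clustered in Seurat 5.3.0 (R 4.3.3, 2000 variable features, 30 principal components, resolution 0.15). Cluster names needed 3 markers of a type, each found in 10% of the cells with a log2 fold over other clusters of 1 or more. Scrublet in scanpy 1.11.5 marked 949 doublets (2.19%), which were kept except in 1 alternative. Of 32285 gene identifiers, 32235 were found in GENCODE vM21.

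UMI sums of each cell type in a library (10 cells or more) were compared, 3 cKO against 3 control libraries, with edgeR 4.0.16 (filterByExpr, TMM, robust quasi-likelihood test) in 1 fit per type of all 7 libraries in 3 groups, with Benjamini-Hochberg adjustment over all genes of the type and a threshold of 0.05. With 1 DKO library, its spread was taken from the other groups. Single values were compared by an exact two-sided permutation test. No source ties libraries of equal number. Their deviations from the group means correlated above 0.1 in all 3 pairs in endothelial-like (0.19, 0.13 and 0.38) and oligodendrocyte-like cells (0.30, 0.17 and 0.45) alone, and there the block changed no call of a member. The 17 alternatives included DESeq2 1.42.0. Libraries are pools of animals, so p-values measure the spread between pools.

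The members and gene lists were chosen with earlier results of these data known. Named genes were the 10 members in every type, 19 pathway genes fixed by name, and the 5 genes most like Tgfb2 and Tgfbr2. The depth per library, 45758003 to 141353017 UMIs, leaves members at a few CPM with few UMIs per type, and 21 of 110 pairs were not tested. The values of 1 pathway gene fixed by name are not reported here.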

Additional observations from a re-analysis of the deposited data

Results flagged for a closer look

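A pair of differences between cell types stood out because every cKO library lay on one side of the controls in one type and on the other side in the other. Tgfb2 had a log2 fold change of 0.73 in NSC-like and -0.53 in OPC-like cells, a difference of 1.26. Ltbp1 had a log2 fold change of 0.45 in astrocyte-like and -1.88 in oligodendrocyte-like cells, a difference of 2.33, the latter from 1, 1 and 3 UMIs in the cKO libraries. Neither difference was tested, and neither cell type alone gave a call by edgeR's quasi-likelihood test.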

How the results depend on the processing

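Of 1448 values of the 88 member results under the 17 alternatives, 1442 kept their side of the threshold and 1372 their sign, and 49 of the 88 results had one sign throughout. The 6 new calls were Tgfb2 and Tgfbr2 in NSC-like cells. The number of member tests called was 1 with DESeq2, 2 without the filter on low counts, 1 with the replicate block (Tgfbr2 in NSC-like cells, adjusted p = 0.0292 from edgeR) and 0 to 2 when 1 library was left out, with 2 without cKO library 1. The number of pathway tests called was 6 with DESeq2, 18 without the filter, 8 with the replicate block, 1 with Cell Ranger version added as a block, and 0 to 17 when 1 library was left out, with 17 without cKO library 1 and 1 without control library 3. The 18, 8 and 17 include neuroblast-like Mmp14, the 18 and 17 also Bambi and the 17 also Tgif2, all of the contrast that chose Tgfb2, and nothing is read from these. Without cKO library 1 calls over all genes of astrocyte-like cells rose from 132 higher and 28 lower to 312 and 232. Those of ependymal-like cells rose from 21 and 1 to 174 and 180. Calls over all genes of NSC-like cells also rose, from 22 higher and 0 lower to 487 and 81 with DESeq2, 442 and 120 without the filter, 376 and 88 with the replicate block and 1024 and 636 without cKO library 1, and were 75 and 4 without shared barcodes. They fell to 12 and 0 with Cell Ranger version as a block, 2 and 0 without the DKO library, 2 and 1 without cKO library 2, 1 and 0 without cKO library 3, and 0 at 5% mitochondrial counts (1555 at an unadjusted p under 0.05) or without any 1 of the control libraries (1421 to 1854). In NSC-like cells the deviations of libraries of equal number correlated at 0.24, -0.013 and 0.35 for numbers 1, 2 and 3. Numbers 1 and 3 thus went together and number 2 did not, so whether the block is a paired test there cannot be told. Tgfb2 in neuroblast-like cells was at 1.47 at resolution 0.3 and between 1.69 and 2.13 on the log2 scale when 1 library was left out. The leading cell type changed in 2 of 80 cases: Smad2 to TAP-like cells without control library 3, and Smad7 to oligodendrocyte-like cells without integration. Without integration no cluster was named NSC-like, so that alternative gave no value there. A cluster of 5826 cells led by Thbs4 and a low-UMI cluster of 4584 cells led by Agt, Prm1 and Gfap were named astrocyte-like instead. The astrocyte-like values of that alternative thus describe a different set of cells from the 2277 of the main clustering. Leaving out barcodes shared between libraries was chosen after seeing the data and gave 0 calls of members and of pathway genes. Low counts limit several pairs, among them Tgfbr2 in NSC-like cells (9 to 59 UMIs per library) and Ltbp1 in oligodendrocyte-like cells.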

Other observations

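Fcrls, a receptor-like gene of microglia on the TGF-beta-dependent list, was at 427 ± 94.1 CPM in control and 372 ± 41.8 in cKO microglia-like cells (SD, n = 3 each) and at 1231 CPM in the DKO library, above all 6 others. It was singled out after its values were seen. In NSC-like cells Prm1, a protamine gene, was at 0 to 0.211 CPM in control, at 157 to 468 CPM in cKO, and 169 CPM was measured in the DKO library. It was thus found in every library with hGFAP-Cre and almost absent without it, so the transgene and the deletion cannot be told apart as its source. What a Prm1 UMI marks in a cell was not tested. Within the libraries with Cre, Tgfb2 was at 87.3 to 115 CPM of the raw total in cKO NSC-like cells with a Prm1 UMI and 54.8 to 71.4 in those without, and at 65.2 and 40.7 in the DKO library. Control NSC-like cells without a Prm1 UMI were at 45.9 to 63.3. The cells with a Prm1 UMI were deeper, with median depths of 6642, 14342 and 11600 UMIs in cKO libraries 1, 2 and 3 against 4860, 7675 and 7023 without, and the part of depth in the result was not tested. Tgfbr2 in NSC-like cells was at 3.74, 7.05 and 2.81 CPM with and 3.32, 5.79 and 1.06 without a Prm1 UMI in cKO libraries 1 and 2 and the DKO library. In cKO library 3 it went the other way, at 6.37 with and 13.8 without. Tgfb2 in neuroblast-like cells was at 21.1, 40.0 and 17.0 with and 18.0, 31.9 and 8.57 without in cKO libraries 1 and 3 and the DKO library. In cKO library 2 it went the other way, at 9.48 (5 UMIs) with and 35.6 without.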
